A study of Tigriopus californicus with 4 samples.

Results

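The transcriptome of the San Diego (SD) population of *Tigriopus californicus*, a copepod of splash pools on the Pacific coast, was compared between 1 heat-stress library and 1 control library, contig by contig. A contig is an assembled transcript sequence, and several contigs can come from 1 gene. Of 20278 SD contigs with values, 13022 carried a product name from a protein database match, 11937 of these reached 5 RPKM (reads per kilobase of contig, scaled to the library's reads) in at least 1 library, and 227 with a bracketed bacterial species in the name were set aside. The comparison therefore covered 11710 members. Of these, 10301 reached 5 RPKM in both libraries, 777 did so only after heat stress and 632 only in the control, so that the direction of these last contigs was largely set by the rule. The member nearest to the limit, SD_Contig3725, had 5.01 RPKM in the control and 4.24 RPKM after heat stress, and the nearest named contig left out, SD_Contig50252, had 3.19 and 5.00 RPKM.

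Both SD libraries were made from laboratory stock animals of all life stages, with 300 to 400 copepods pooled into each sample. The heat-stress pool stood for 1 h in a 35 °C water bath and recovered for 1 h at 20 °C, while the control pool was handled alike at 20 °C. The series also holds a control and a heat-stress library from Santa Cruz (SC), a population from farther north, mapped to its own assembly. With 1 library per condition there was no replicate check, so no p-value is given, and ratios describe these 2 libraries. The control libraries shared 1 sequencing lane and the heat-stress libraries the adjacent one, and treatment therefore cannot be told apart from lane. Because whole animals were pooled, a different share of life stages or tissues and a different amount of RNA per cell cannot be told apart either.

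Cells exposed to heat accumulate unfolded proteins, which heat shock factor answers by switching on genes for chaperones. Small heat shock proteins hold unfolded proteins in solution, Hsp70 refolds them in cycles of ATP hydrolysis with its DnaJ (Hsp40) partners, and Hsp90 matures signalling proteins handed over by organizing proteins. Proteins that cannot be rescued are tagged with ubiquitin and destroyed by the proteasome or by autophagy, and misfolding inside the endoplasmic reticulum calls on a separate set of chaperones.

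After heat stress, 589 members were at least 2-fold higher (5.03% of those compared) and 444 were at least 2-fold lower (3.79%). Over all 18430 SD contigs at 5 RPKM in 1 library, named or not, the shares were 8.53% and 5.77%. The median member had a log2 ratio of heat stress over control of −0.05, with quartiles of −0.28 and 0.18. Among the 589 higher members, 396 had been kept only through their level after heat stress, and 225 of the 444 lower members only through their control level. RPKM values come in steps of 1 read, which allowed the smallest read number behind each value to be recovered. The totals this gave were 1947202 reads for the control and 5583128 for heat stress, 2.87 times as many, so the precision of a ratio was set mainly by the control. Members had a median of 43 control reads and 121 heat-stress reads. Each ratio below is followed, where it matters, by a 95% counting interval (exact Clopper-Pearson on the recovered reads), which covers counting error only and not differences between pools of animals.

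**Figure D1:**
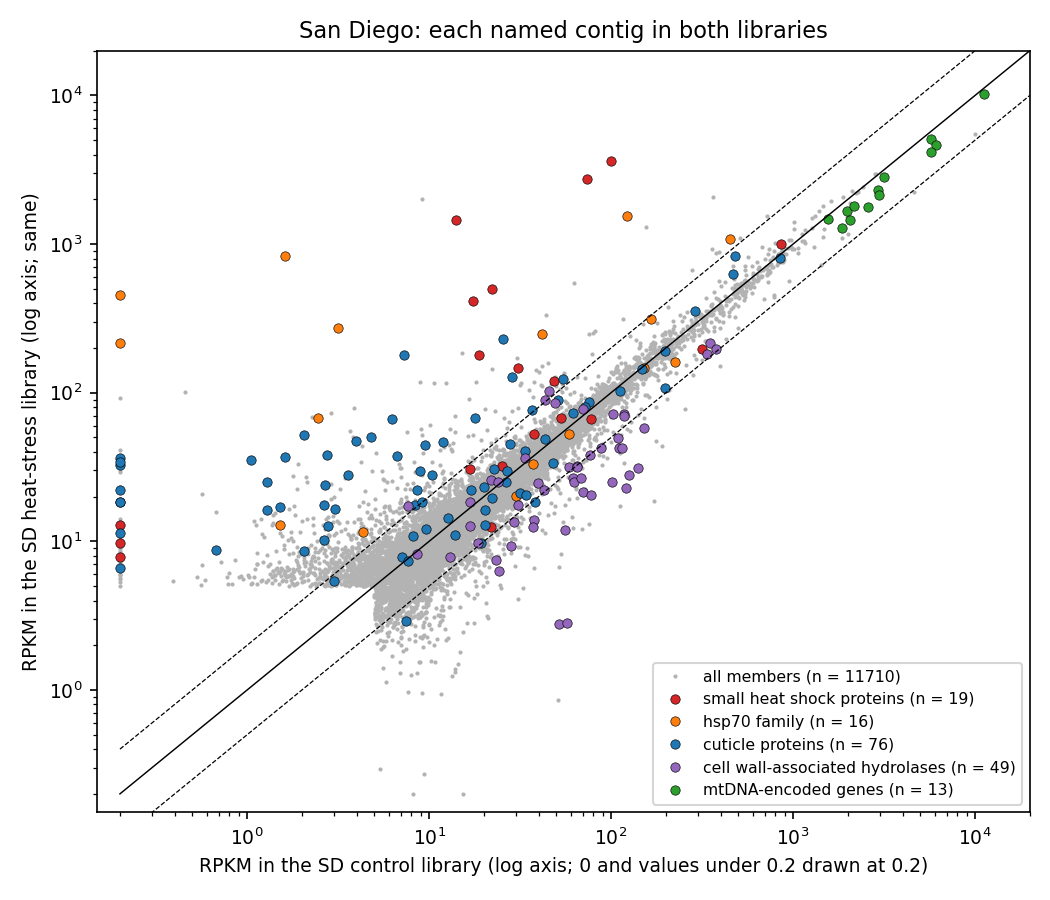
RPKM of each of the 11710 members in the SD control library (horizontal, log axis) and the SD heat-stress library (vertical, log axis), with the line of equality and dashed lines at 2-fold. Most small heat shock and hsp70 contigs lie above the diagonal, over a wide range. Their ratio, or its lower bound where the control is 0, is above 1 in 14 of 19 and 11 of 16. Many cuticle contigs (76) rise from low control levels, and cell wall-associated hydrolases (49) and the 13 genes of mitochondrial DNA lie mostly below the diagonal.

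The share of members past 2-fold depended on the number of reads and on the library in which reads were counted. With fewer than 30 reads in both libraries together, 16.3% of 1547 members were at least 2-fold higher and 13.4% at least 2-fold lower. At 3000 reads or more, 7.08% of 226 members were higher and 0.442% lower. Because the heat-stress library was deeper, a rise by itself carried a contig into a higher bin of summed reads and a fall carried it out of one. Counted in the control alone, 2.72% of the 2832 members with 10 to 29 reads were higher and 9.18% lower, and of the 153 members with at least 1000 control reads 1.31% were higher and 0.654% lower. Of the 3360 members with at least 100 control reads, 84.0% stayed within 1.25-fold of the control, 24 rose at least 2-fold and 31 fell at least 2-fold. The balance of rises and falls among abundant transcripts thus changed with the library used to rank them.

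**Figure D2:**
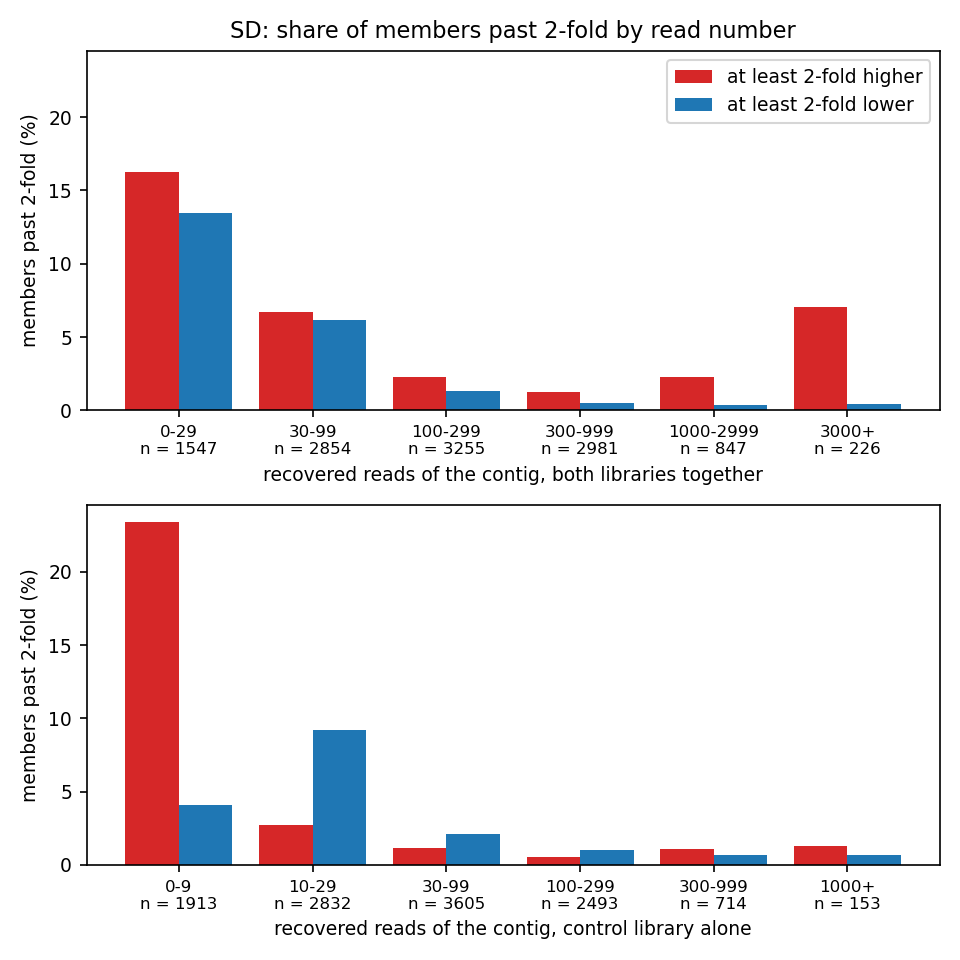
Percentage of members at least 2-fold higher (red) or at least 2-fold lower (blue) after heat stress, by recovered reads of the contig in both libraries together (top) and in the control library alone (bottom), with the number of members under each bin. Rises exceed falls in every bin of summed reads, whereas falls exceed rises from 10 to 299 control reads, for example 9.18% against 2.72% at 10 to 29.

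Of the 15 rises ranked highest by the lower end of the counting interval, 10 carried heat shock names, and within the small heat shock and hsp70 families some contigs rose many fold while others barely differed. Of 19 contigs with small heat shock protein names, 8 rose at least 2-fold and 0 fell, beside 5.03% and 3.79% of all members. All 8 were among the 16 with at least 10 control reads, a limit under which 1.45% of all members rose. The summed level of the 19 went from 0.204% to 1.25% of all RPKM in the library, 6.13 times as much. SD_Contig64282, which carries the name of a mitochondrion-localized small heat shock protein of the plant *Arabidopsis*, was 36.1-fold higher (27.1 to 49.2). It had 99.7 RPKM in the control and 3600.0 RPKM after heat stress. It became the most abundant heat shock contig, above every contig in the lists of ribosomal proteins in the same library. The hsp20 alpha-crystallin contig SD_Contig70407 went from 73.4 to 2728 RPKM, 37.2-fold (29.9 to 46.8). Contigs named heat shock protein beta-1 spread widely, and SD_Contig42679, with 14.1 RPKM in the control and 1446 RPKM after heat stress, had an interval of 72.5 to 149.9. Others with that name were SD_Contig61673 at 24.0-fold, SD_Contig41950 at 22.3-fold and SD_Contig69629 at 4.75-fold.

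The most abundant small heat shock contig of the control was not among those that rose. SD_Contig47751, named heat shock protein 67b2, had 861 RPKM in the control and 1001 RPKM after heat stress (ratio 1.16, 1.06 to 1.28). Another contig of that name, SD_Contig54507, was lower at 21.9 and 12.5 RPKM (0.571, 0.363 to 0.909). Contigs named lethal (2) essential for life, after a small heat shock protein of *Drosophila*, also went different ways. SD_Contig37789 rose from 48.9 to 119 RPKM (2.44), whereas SD_Contig61788 went from 315 to 196 RPKM (0.623, 0.569 to 0.683). The worm-type hsp16 contig SD_Contig43246 rose from 18.9 to 179 RPKM, 9.50-fold. For 3 small heat shock contigs listed at 0 in the control, heat-stress levels of 7.84 to 12.9 RPKM were too low to set a fold of 2.

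Of 16 contigs with hsp70 family names, 10 rose at least 2-fold and 0 fell, but 7 of the 10 lay under 5 RPKM in the control and were members only through their heat-stress level. With at least 10 control reads 5 of 11 rose, beside 1.45% of all members under that limit. The list's median log2 ratio of 1.99 became 0.92 under that limit, and −0.05 over the 9 contigs at 5 RPKM in both libraries. Inducible forms started from almost nothing. SD_Contig64332, named inducible heat shock protein 70, had 1.62 RPKM (1 read) in the control and 830.4 RPKM after heat stress, and its ratio of 511 had an interval from 91.6 upwards. SD_Contig66967, of the same name, had no control reads and 457 RPKM under heat stress, which makes it at least 27.0-fold higher against a floor of 3 reads in the control library. On that floor SD_Contig54602, with 0 and 217 RPKM, was higher by at least 25.2-fold. The remaining contig with the inducible name, SD_Contig42606, was already present at 122 RPKM in the control and reached 1542 RPKM (12.7-fold, 11.6 to 13.9), the highest level among contigs with an hsp70 name. SD_Contig54457, named heat shock protein 71, went from 3.16 to 273 RPKM and SD_Contig62330 from 2.46 (3 reads) to 67.5 RPKM. Copies of *hsp70* are alike enough for reads to be shared between them, so the split among these contigs is uncertain.

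Contigs of the family that were abundant in the control differed less. SD_Contig69610, a second heat shock protein 71 contig and the most abundant of them, rose from 450 to 1076 RPKM (2.39, 2.28 to 2.51). The heat shock cognate contig SD_Contig35793 was lower, at 223 RPKM in the control and 162 RPKM after heat stress (0.724, 0.649 to 0.809). SD_Contig36005, named heat shock 70 kDa protein, stood at 152 and 147 RPKM. SD_Contig35811, matching hsc70cb, a *Drosophila* relative of the Hsp110 exchange factors of Hsp70, was 1.90-fold higher at 166 and 316 RPKM. The order of levels in the family thus turned over, since the cognate contig exceeded the inducible SD_Contig42606 in the control, at 223 against 122 RPKM, and lay far below it after heat stress, at 162 against 1542 RPKM.

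The Hsp90 machine rose less than the inducible chaperones but from a higher start. SD_Contig62648, named heat shock protein 90, went from 364 to 2063 RPKM, 5.67-fold (5.40 to 5.96) on 1675 control reads. Both contigs named for Hsp70-Hsp90 organizing protein, which carries clients between the chaperones, rose, SD_Contig36818 from 82.1 to 260.1 RPKM (3.17) and SD_Contig62535 from 78.6 to 184 RPKM (2.34). The scarce contig named heat shock protein sti1 homolog, SD_Contig56176, did not rise, at 6.69 and 4.38 RPKM on 8 control reads (0.654, 0.260 to 1.78). An Hsp70-interacting contig, SD_Contig48648, had 0 and 41.2 RPKM, higher by at least 3.72-fold. The Hsp90 co-chaperone Cdc37, which brings protein kinases to Hsp90, was 1.36-fold higher (SD_Contig42117, 51.2 and 69.4 RPKM). A low contig also named heat shock protein 90, SD_Contig55178, was lower at 32.7 and 14.1 RPKM on 17 control reads (0.431, 0.216 to 0.870).

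Of 8 DnaJ contigs, 0 passed 2-fold, and 1 stood out, SD_Contig38035, named heat shock protein 40, at 205 and 375 RPKM (1.83, 1.70 to 1.97). The other DnaJ contigs ranged from 0.720 to 1.19. Chaperonins, the barrel-shaped chaperones of the cytosol (t-complex proteins) and of mitochondria (Hsp60 with Hsp10), had 0 of 9 contigs past 2-fold. Mitochondrial Hsp60, SD_Contig68611, had 249 RPKM in the control and 270.2 RPKM after heat stress (1.09), and the t-complex subunits ranged from 0.940 to 1.17. None of the chaperonin contigs thus rose like SD_Contig64282, the contig with the plant mitochondrial small heat shock name, at 36.1-fold. Where the product of that contig resides in the copepod was not tested.

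**Figure D3:**
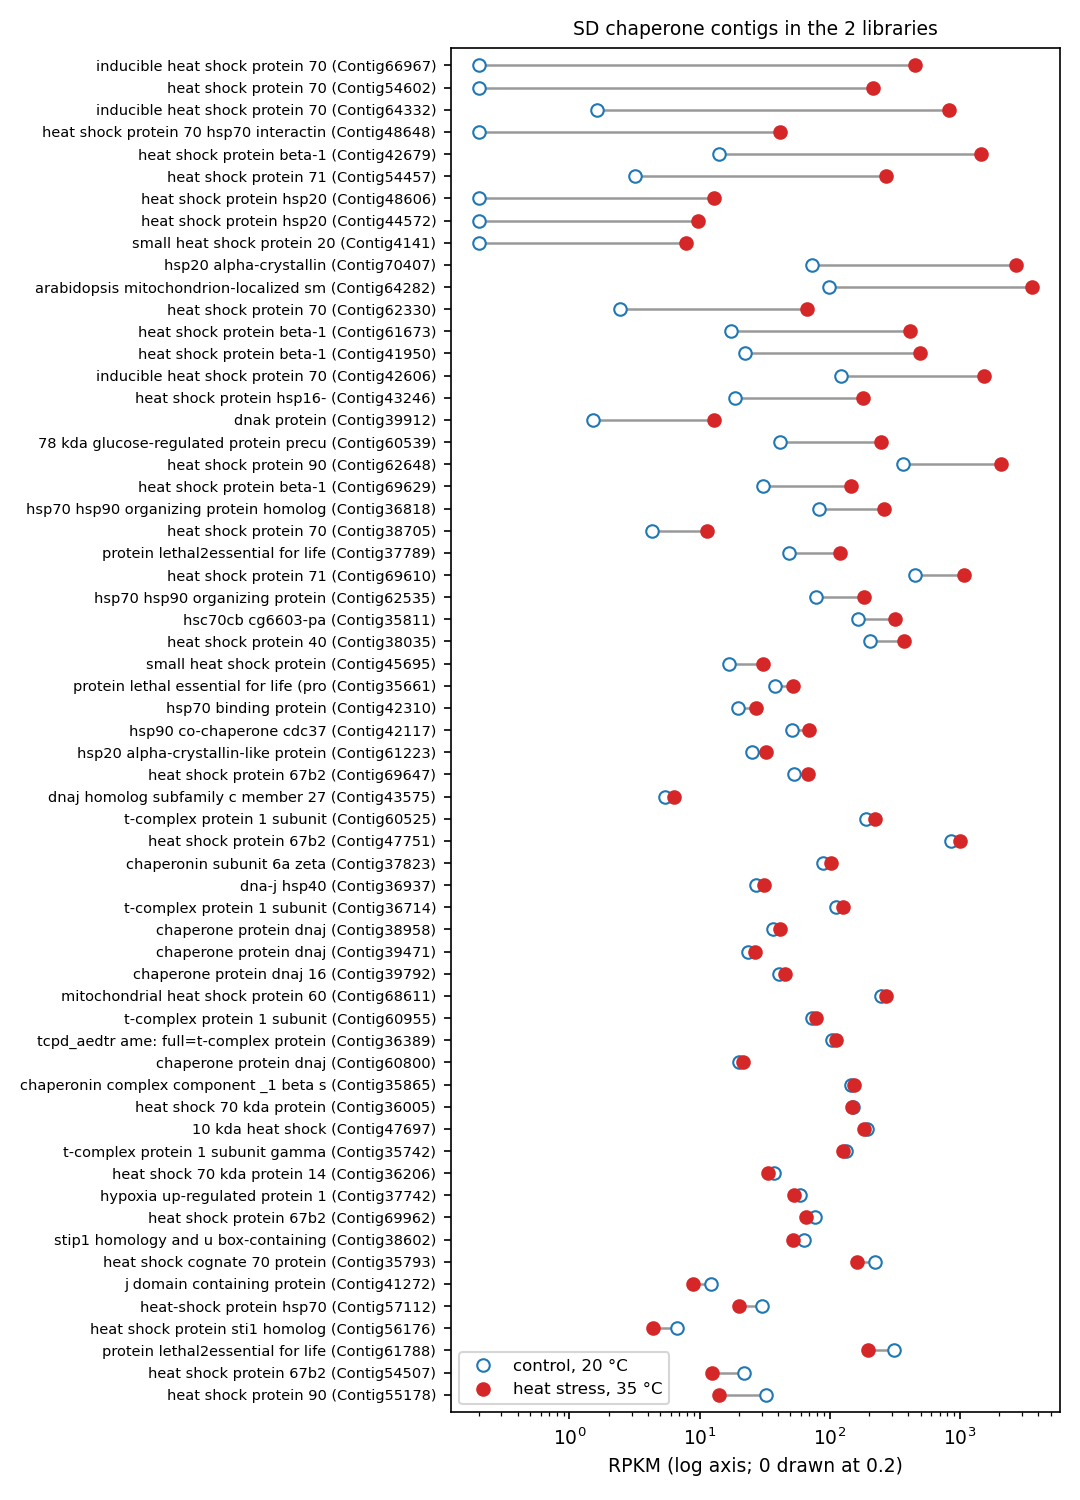
RPKM (log axis) of each contig with a small heat shock, hsp70, Hsp90 or co-chaperone, DnaJ or chaperonin name in the control (open blue) and heat-stress (filled red) library, ordered by ratio, with 0 drawn at 0.2. Ratios of contigs with control reads reach 511 for inducible hsp70 (on 1 control read) and 102 for small heat shock contigs, while chaperonins and most DnaJ contigs keep their level. The distance from a 0 drawn at 0.2 is not a measured ratio.

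In the endoplasmic reticulum list of 18 contigs, 2 rose and 2 fell past 2-fold, around a median log2 ratio of −0.10. These shares of 11.1% each stood beside 5.03% higher and 3.79% lower among all members. The 2 that rose are central to the unfolded protein response. SD_Contig60539, named 78 kDa glucose-regulated protein (BiP, the Hsp70 of that compartment, counted in the hsp70 list as well), went from 41.5 to 247 RPKM (5.95, 4.78 to 7.48), and SD_Contig37148, X-box binding protein 1, the transcription factor of the response, went from 18.0 to 119 RPKM (6.60, 4.74 to 9.45). The herpud family contig SD_Contig61506, named for proteins of the degradation route out of the reticulum, was 1.90-fold higher. Folding enzymes and lectin chaperones did not move with them. Calreticulin, SD_Contig42631, was at 310.2 and 269 RPKM (0.866), calnexin, SD_Contig39035, at 61.7 and 57.7 RPKM, and the most abundant protein disulfide isomerase, SD_Contig61716, at 587 and 549 RPKM. The 2 that fell were disulfide isomerases, SD_Contig35816 from 40.4 to 15.5 RPKM (0.385) and SD_Contig54127 from 19.3 to 6.17 RPKM (0.320).

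Protein disposal showed a split of the same kind. Of 140 contigs in the ubiquitin list, 16 rose and 2 fell past 2-fold, beside 5.03% and 3.79% among all members, and the list's median log2 ratio was −0.04. Among the 124 contigs with at least 10 control reads, 7 rose and 2 fell, beside 1.45% and 3.74% of all members under that limit. Ubiquitin itself rose. The polyubiquitin contig SD_Contig70437 went from 723 to 1545 RPKM (2.14, 1.98 to 2.31), SD_Contig70507 from 452 to 1044 RPKM (2.31) and SD_Contig67095, named ubiquitin family protein, from 359 to 926 RPKM (2.58). Ubiquitin genes repeat the same coding unit, so reads can be shared between these contigs. Ligases of the HECT type were the other group, with 3 contigs named HERC4 at 3.66-fold (SD_Contig35645, 38.8 and 142 RPKM), 3.43-fold and 2.75-fold, and SD_Contig47789, named HECT E3 ligase, at 5.60-fold (30.4 and 171 RPKM). Their control levels lay between 38.8 and 41.3 RPKM for all 3 HERC4 contigs, and whether these come from 1 gene was not tested. SD_Contig35645 had 152 control reads (interval 3.10 to 4.36). No other of these ligase contigs had 300 reads in both libraries together. The proteasome, in contrast, had 0 of 33 contigs past 2-fold, and its lowest contig by interval, SD_Contig36778, was at 70.3 and 51.9 RPKM.

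Sequestosome-1, the receptor that delivers ubiquitin-tagged aggregates to autophagosomes and is also known as p62, rose strongly in 2 of its 3 contigs. SD_Contig69651 went from 62.2 to 547 RPKM (8.79, 6.89 to 11.4) and SD_Contig35719 from 44.1 to 332 RPKM (7.53, 5.97 to 9.62), while SD_Contig36078 stayed at 17.3 and 19.8 RPKM. The 11 contigs named for the autophagy machinery itself did not pass 2-fold, and ranged from 0.750 for one of the autophagy protein 5 contigs to 1.58 for the other. The contig SD_Contig61126, named glrx3 protein after a glutaredoxin that handles iron-sulphur clusters, rose from 156 to 1300 RPKM (8.31, 7.77 to 8.90) on 877 control reads and reached the level of abundant chaperones.

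The AP-1 transcription factors, which respond to many kinds of stress, were higher. SD_Contig68590, named for kayak, the *Drosophila* Fos that forms AP-1 with Jun, went from 31.7 to 112 RPKM (3.54, 2.91 to 4.33), and the jun b contig SD_Contig38989 from 19.5 to 36.9 RPKM (1.89, 1.37 to 2.68). Kayak was the 1 contig past 2-fold among 8 in the AP-1 and bZIP list. No member carried the name heat shock factor. In the list of 28 MAP and stress kinases 0 passed 2-fold, and the most abundant of them, SD_Contig35580, a kinase that binds MAP kinases and phosphorylates the cap-binding factor eIF4E, was at 179 and 295 RPKM (1.64, 1.54 to 1.75). The eIF4E-binding protein SD_Contig39330, a brake on the same factor, fell from 91.9 to 44.0 RPKM (0.478, 0.390 to 0.589).

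Outside the lists, the members with at least 300 reads gave further named rises, which were picked after their values were seen. Kinases among them were SD_Contig60752, tao1, a kinase of stress-activated cascades, at 37.5 and 117 RPKM (3.13), and 2 of 5 contigs named for pim kinases, SD_Contig767 at 2.98-fold and SD_Contig37995 at 2.51-fold, the other pim contigs lying between 1.16 and 1.38. Proline breakdown was represented by SD_Contig38689, matching the sluggish gene, which encodes proline oxidase in *Drosophila*, at 41.6 and 111 RPKM (2.67, 2.22 to 3.22), and by SD_Contig40538, proline dehydrogenase, at 19.3 and 48.3 RPKM (2.51, 1.88 to 3.41), while another contig of that name, SD_Contig38766, was 1.60-fold higher. The interferon-related developmental regulator SD_Contig69690 went from 117 to 312 RPKM (2.67), and the midline fasciclin contig SD_Contig35590, a cell adhesion protein, from 45.0 to 159 RPKM (3.52). The 15 rises ranked highest by the lower end of their interval held, beside 10 heat shock names and 1 cuticle name, 4 contigs whose names do not say what they encode. They were SD_Contig68675, named loc560210 protein, whose 9.15 RPKM in the control became 1999 RPKM, 2 contigs with a hypothetical salmon louse protein as their match (SD_Contig36223 at 0.454 and 100.6 RPKM and SD_Contig41955 at 0 and 91.9 RPKM), and SD_Contig61851, matching an extensin-like repeat protein of plants, at 0 and 34.1 RPKM. The lists rest on names alone, so a chaperone under another name is not in them. The paper lists hsp70 genes with SD rises of a size like that of SD_Contig68675. Whether this contig or any other of the 4 is a chaperone was not tested.

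**Figure D4:**
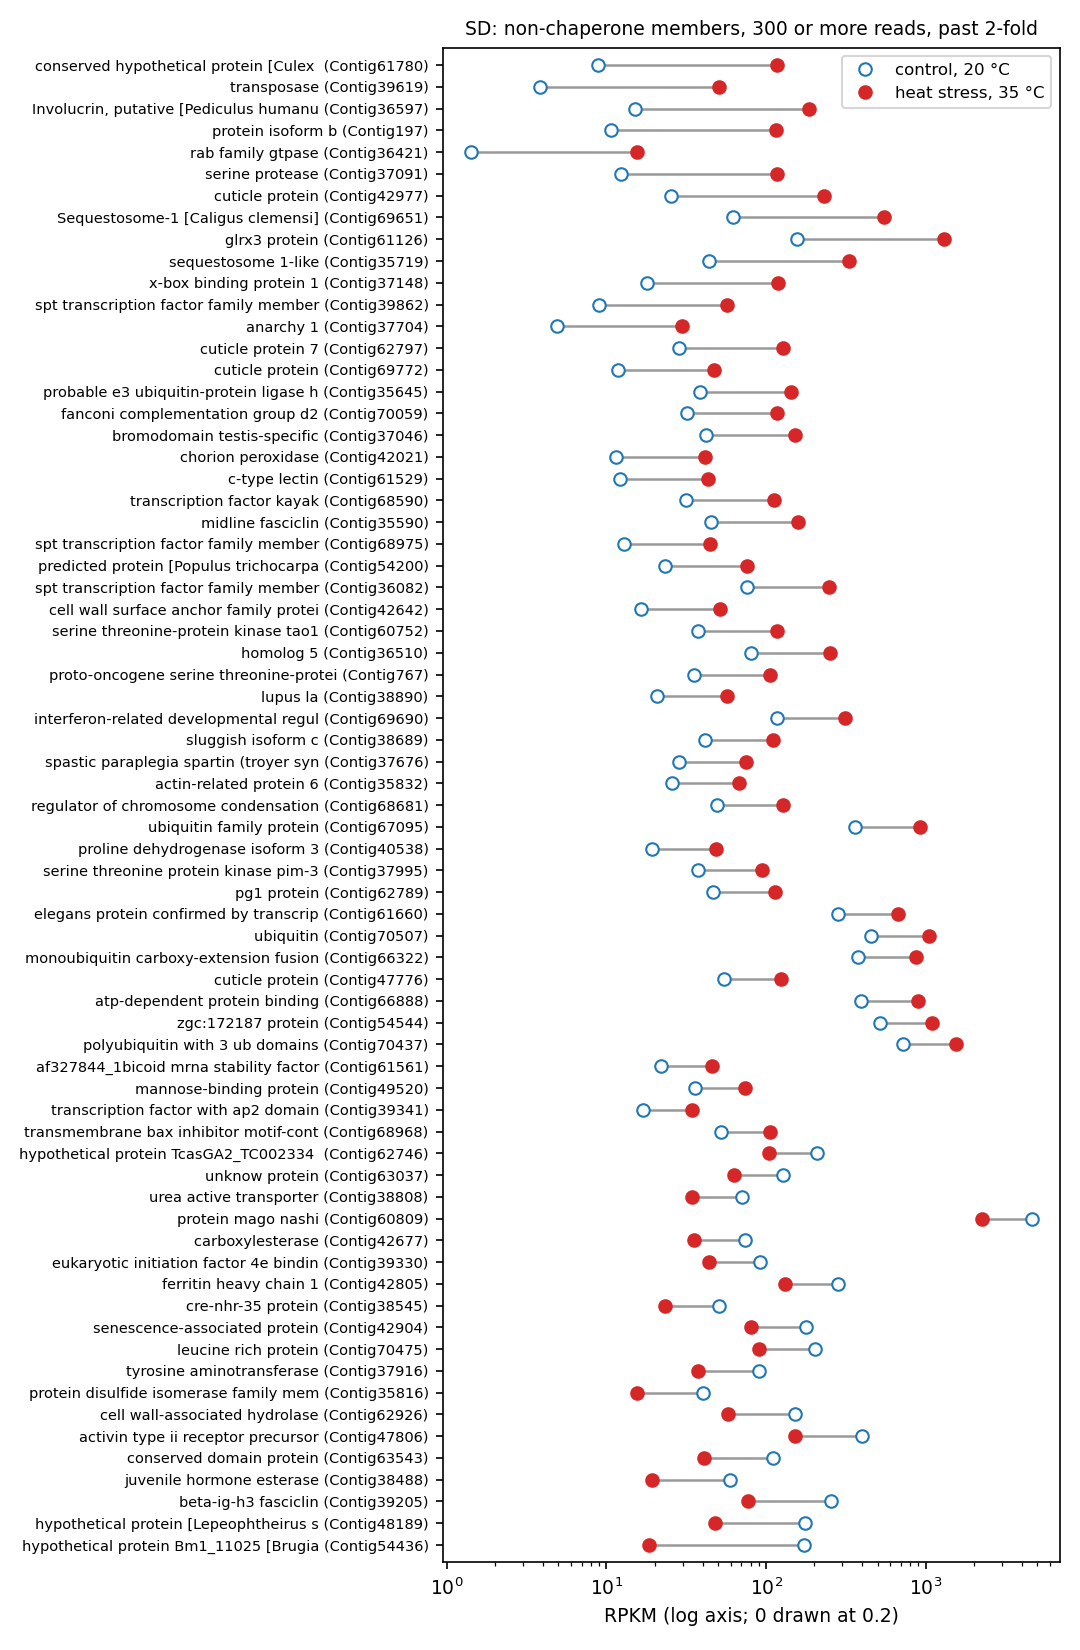
RPKM (log axis) of the 69 members without chaperone names that had at least 300 recovered reads and a ratio past 2-fold but under 15, in the control (open blue) and heat-stress (filled red) library. The 50 that rose include both high sequestosome contigs, glrx3 and ubiquitin, and the 19 that fell, which a limit on summed reads admits less readily, include juvenile hormone esterase and ferritin heavy chain 1.

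Cuticle proteins, which bind chitin in the exoskeleton, held many rises. Of 76 contigs, 36 rose and 2 fell past 2-fold, and 39 of the 76 had fewer than 10 control reads. The list's median level was 9.56 RPKM in the control and 28.9 RPKM after heat stress, and its median log2 ratio was 0.81. Among the 37 contigs with at least 10 control reads, 10 rose, 1 fell and the median log2 ratio was 0.28, beside 1.45% of members higher and 3.74% lower under the same limit. SD_Contig60535, cuticle protein 19, had 7.28 RPKM in the control and 179.7 RPKM after heat stress (24.7, 14.6 to 45.3), and SD_Contig42977 had 25.5 and 231 RPKM (9.08, 6.38 to 13.4). The most abundant cuticle contig was flat, with SD_Contig42668, a flexible cuticle protein, at 844 and 804 RPKM (0.953), and SD_Contig38062, cuticular protein 5, fell from 38.2 to 18.3 RPKM (0.478, 0.373 to 0.615). Of the 76, 26 lay under 5 RPKM in the control and were members only through their heat-stress level, so that a scarce cuticle contig could enter only if it was higher. SD_Contig38656, named for a cuticular protein analogous to peritrophins, rose from 3.97 to 47.2 RPKM (11.9, 5.96 to 27.8). Of the 44 contigs in the list of chitin enzymes and chitin binding, which shares that contig, 5 rose (11.4%) and 4 fell (9.09%). Among all members 5.03% rose and 3.79% fell. With at least 10 control reads 2 of 33 chitin contigs rose and 2 fell, beside the 1.45% and 3.74% given above.

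Spätzle proteins are secreted ligands of Toll receptors, known from *Drosophila* immunity and development. In a list of 15 spätzle and Toll contigs 4 rose past 2-fold (26.7%), all of them named spätzle, and 0 fell. Among all members 5.03% rose and 3.79% fell. All 4 lay under 5 RPKM in the control and were members only through their heat-stress level, and with at least 10 control reads 0 of 9 rose. The 4 had 8 or fewer control reads, and 23.4% of all members with fewer than 10 were higher. SD_Contig40458 went from 3.84 to 78.4 RPKM (20.4, 10.3 to 47.5) on 8 control reads and SD_Contig44401 from 1.90 to 33.1 RPKM (17.4, 7.34 to 54.0) on 5. Contigs of the Toll receptors themselves did not pass 2-fold. Of 19 collagen and basement membrane contigs, 3 rose, a share of 15.8% beside 5.03% of all members. The 3 were all named collagen alpha-1 chain and had 6 or fewer control reads. Among all members with fewer than 10 control reads, 23.4% were higher, as given above. With at least 10 control reads 0 of the 14 collagen and basement membrane contigs rose, beside 1.45% of all members. SD_Contig37091, named serine protease, rose from 12.4 to 117 RPKM (9.40, 6.21 to 14.9), the largest rise by the lower interval end among 121 digestive and trypsin-like protease contigs. Of the 121, 11 rose (9.09%) and 4 fell (3.31%), beside 5.03% and 3.79% of all members. With at least 10 control reads 3 of 98 rose and 4 fell, beside 1.45% and 3.74% of all members under that limit.

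Muscle showed a small shift shared by most contigs. Of 102 muscle protein contigs, 85 had a ratio above 1, beside 43% of all members, and the median log2 ratio was 0.26. Past 2-fold there were 5 rises, each with 3 or fewer control reads, and 0 falls. The most abundant, SD_Contig70416, myosin light chain 2, was at 1017 and 1268 RPKM (1.25, 1.18 to 1.32). Myosin light chain, beta-actin, glyceraldehyde-3-phosphate dehydrogenase and tubulin alpha served as reference genes for the study's PCR assays. In these libraries SD_Contig62680, beta actin, was at 1276 and 1502 RPKM (1.18), SD_Contig62666, the dehydrogenase, at 832 and 751 RPKM (0.903, 0.863 to 0.945), and SD_Contig42809, tubulin alpha-1, at 441 and 425 RPKM (0.964).

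**Figure D5:**
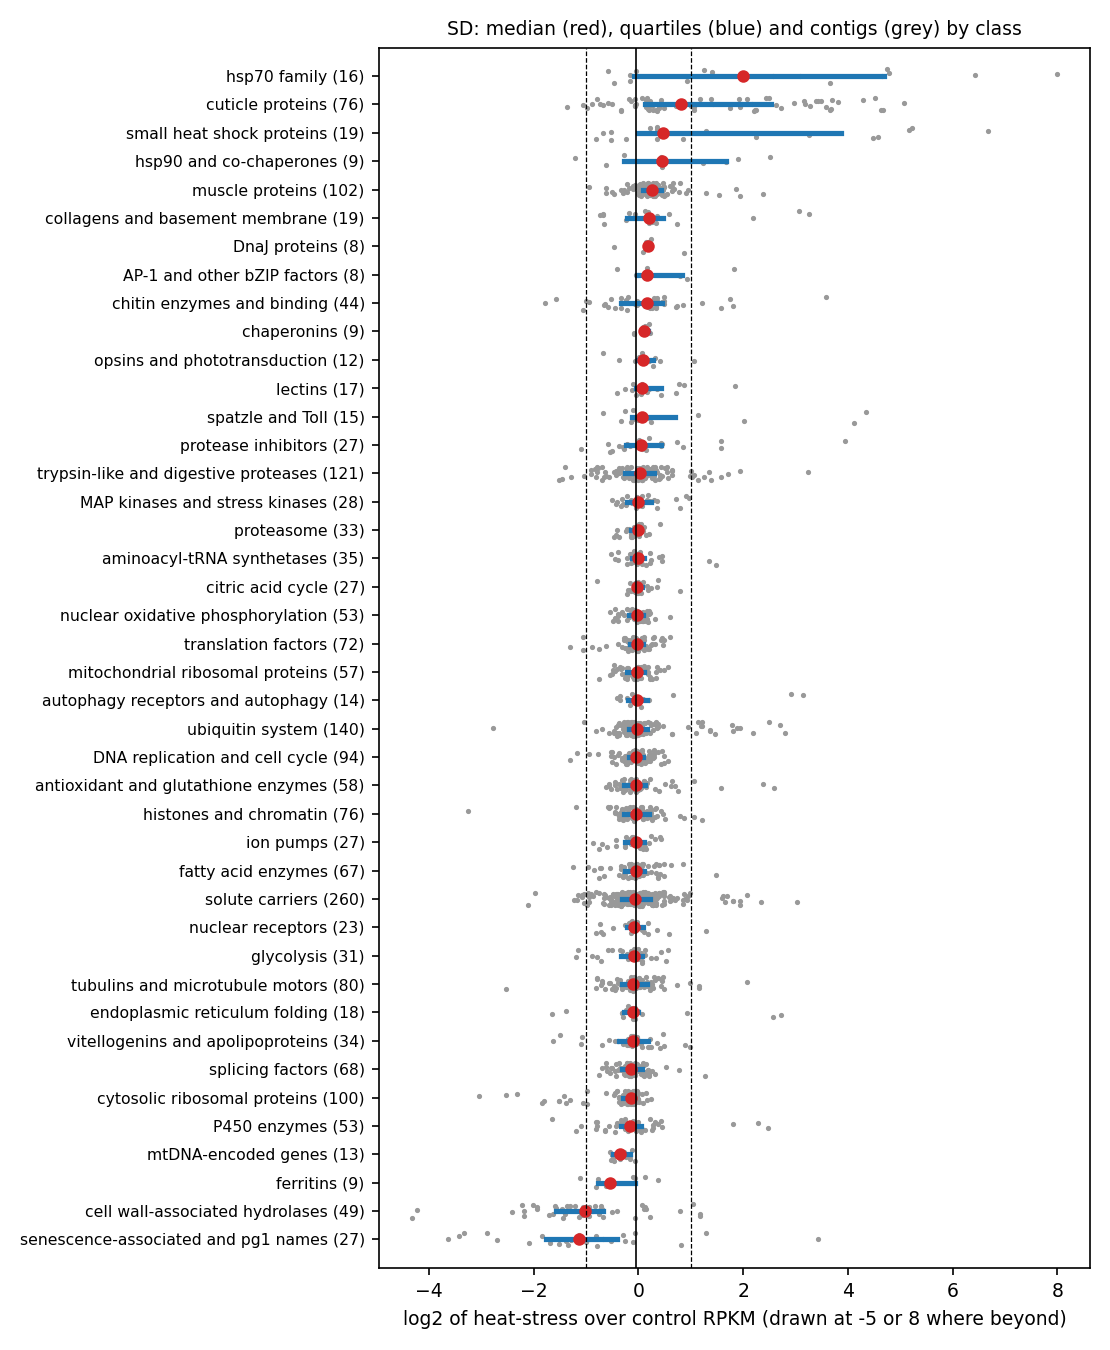
Log2 of heat-stress over control RPKM for each contig (grey), with the median (red) and quartiles (blue) of each list and the number of contigs in brackets. The solid line marks the median of all members, −0.05, and dashed lines mark 2-fold. The hsp70, cuticle and small heat shock lists have the highest medians over the members that passed the filter, ferritins stand at −0.54, and cell wall-associated hydrolases at −1.02.

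Nuclear genes of oxidative phosphorylation had 0 of 53 contigs past 2-fold and a median log2 ratio of −0.02, the citric acid cycle 0 of 27, mitochondrial ribosomal proteins 0 of 57, and DNA replication and the cell cycle 0 higher and 2 lower of 94. The transcripts of mitochondrial DNA were less abundant. Together the 13 genes went from 5.91% to 4.82% of summed RPKM, a ratio of 0.817, beside 0.970 for the nuclear oxidative phosphorylation contigs. The most abundant of them, cox1, encoding subunit I of cytochrome oxidase, had 11270.4 RPKM in the control and 10296 RPKM after heat stress (0.914, 0.902 to 0.925), and cox2 and cytb stood at 0.894 and 0.891. The lowest ratios were those of complex I subunits, with nad1 at 2573 and 1787 RPKM (0.695, 0.670 to 0.720), nad6 at 0.691, nad4 at 0.706, nd4L at 0.714 and nad2 at 0.726, but the complexes overlapped, since ATP6 stood at 0.763 and cox3 at 0.787, and the complex I genes nad5 and nad3 at 0.827 and 0.952. Cytosolic ribosomal proteins had a median log2 ratio of −0.15, with 0 of 100 contigs higher and 11 lower, beside 5.03% and 3.79% of all members. Those 11 were scarce contigs with 14.8 RPKM or less in the control, such as SD_Contig46019, named 40S ribosomal protein, at 14.8 and 1.81 RPKM (0.122). Of the 100, 14 lay under 5 RPKM after heat stress and were members only through their control level. Among the 93 with at least 10 control reads, 8 were lower, beside 3.74% of all members under that limit. A small shift downwards was shared, since 6 of the 100 had a ratio above 1, beside 43% of all members, and 45 had an interval wholly below 1 against 0 wholly above. SD_Contig47694, protein L30 of the large subunit, was 1 of those 6, at 479 and 532 RPKM.

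Ferritins, which store iron, were lower in their abundant contigs. SD_Contig65888 had 1867 RPKM in the control and 1091 RPKM after heat stress (0.585, 0.518 to 0.660), SD_Contig70443 had 1818 and 1253 RPKM (0.689) and SD_Contig61832 had 781 and 443 RPKM (0.567). SD_Contig42805, ferritin heavy chain 1, fell from 284 to 131 RPKM (0.463, 0.414 to 0.519), the 1 contig of 9 past 2-fold. The 4 ferritin contigs between 20.3 and 77.6 RPKM in the control had ratios of 0.937 to 1.29. Together the list went from 4932 to 3106 summed RPKM.

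Falls on at least 300 reads were again picked after their values were seen. SD_Contig39205, named for the fasciclin beta-ig-h3, an extracellular adhesion protein, fell from 257 to 77.2 RPKM (0.301, 0.264 to 0.342). SD_Contig38488, juvenile hormone esterase, which in insects inactivates the hormone that sets moulting and reproduction, fell from 59.0 to 19.2 RPKM (0.326, 0.272 to 0.392). SD_Contig47806, an activin type II receptor, fell from 397 to 151 RPKM (0.380) and SD_Contig37916, tyrosine aminotransferase, from 90.1 to 37.4 RPKM (0.415). SD_Contig60809, mago nashi, a part of the exon junction complex, was the most abundant member to fall at least 2-fold, from 4608 to 2247 RPKM (0.488, 0.460 to 0.517). Contigs of very different levels carried the name of the same *Brugia malayi* hypothetical protein. SD_Contig54436 fell from 172.6 to 18.6 RPKM (0.108, 0.0823 to 0.139), and SD_Contig68453, the second most abundant member after heat stress, went from 10003 to 5472 RPKM (0.547).

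The widest block of falls carried names of doubtful identity. Of 49 contigs named cell wall-associated hydrolase, 26 fell (53.1%) and 3 rose (6.12%) past 2-fold, beside 3.79% and 5.03% of all members. Their median levels were 58.4 RPKM in the control and 25.8 RPKM after heat stress. Of 27 contigs named senescence-associated protein, pg1 protein, cytochrome P450 like_TBP or YTV domain protein, 15 fell (55.6%) and 2 rose (7.41%), and their median log2 ratio was −1.13. Such names are attached in protein databases largely to reading frames predicted across ribosomal RNA genes, and what these contigs encode was not tested. Steep falls by the upper end of the interval were those of SD_Contig54435, a hydrolase, at 51.8 and 2.78 RPKM, SD_Contig65536, the like_TBP name, at 13.4 and 1.25 RPKM (0.0936, 0.0434 to 0.185), and SD_Contig63534, pg1 protein, at 112 and 17.2 RPKM (0.154). The group was not uniform, since SD_Contig62768, its most abundant pg1 contig, was at 467 and 380.1 RPKM (0.814), and SD_Contig63215, a hydrolase, rose from 45.4 to 102.1 RPKM (2.25, 1.58 to 3.29). The 227 contigs with a bracketed bacterial name, which were set aside, moved the same way, with 119 lower (52.4%) and 14 higher (6.17%). Their part in these falls was not tested.

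Product names carried by exactly 1 member contig in each population allowed SD to be set beside SC, without a test of the difference. There were 4106 such names. In SD 69 of them (1.68%) were at least 2-fold higher and 54 (1.32%) lower, and in SC 674 (16.4%) were higher and 227 (5.53%) lower. The 23 names higher in both made up 33.3% of the SD rises and 3.41% of the SC rises. Among them, the 78 kDa glucose-regulated protein was 2.38-fold higher in SC beside 5.95-fold in SD, and X-box binding protein 1 was 2.79-fold beside 6.60-fold. Kayak stood closer, at 3.93-fold in SC and 3.54-fold in SD, as did midline fasciclin at 4.52-fold and 3.52-fold and tao1 at 2.35-fold and 3.13-fold. Both unfolded protein response names and kayak thus passed 2-fold upwards in both populations, although an identical name need not mark the same gene in both assemblies. In SC, however, 16.4% of the 4106 names passed 2-fold upwards. The SC ratios also carry no counting interval here, so a shared response was not tested.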

How the data were processed

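The deposited values were RPKM per contig, which the authors made by mapping single-end Illumina reads to an assembly of the same population in CLC Genomics Workbench and dividing the reads on a contig by its length and by the library's reads. The sources used here name no other normalization. Ratios of heat stress over control were computed on the deposited RPKM in Python 3 with pandas, with no scaling. Whole reads were recovered from the RPKM steps as the smallest numbers that fitted both libraries. The fit was closer than chance (p of 0.05 or less) for 84.1% of members, so the true read number can be higher, and both steps were tested on simulated data. A 0 was replaced by a floor of 3 reads and its ratio was read as a bound. The 42 lists were made by words in product names, and exclusions were revised after names and directions had been seen. Members, lists and tests were chosen with earlier results of these data known. Named contigs were the 15 largest rises and falls by the near end of the interval, 5 members at 0 in the control, the most abundant and most changed contig of each list, genes of mitochondrial DNA, and stress regulators and reference genes. Any other was chosen after its values were seen. Alternatives changed the filter, the scaling, an added constant, the fold and the use of a Z-test of proportions. No sequence of a contig is printed.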

Additional observations from a re-analysis of the deposited data

Results flagged for a closer look

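Data outside the members also differed between the libraries. Of 6493 contigs without a product name at 5 RPKM in 1 library, 969 (14.9%) were at least 2-fold higher after heat stress and 501 (7.72%) at least 2-fold lower. Among members the shares were 5.03% and 3.79%. In the control 422 of the unnamed contigs were at 0. With at least 10 control reads, 66 of 3124 unnamed contigs were higher and 376 lower, beside 1.45% and 3.74% of members under that limit. The unnamed SD_Contig14239 went from 65.4 to 2399 RPKM (36.7, 27.4 to 50.2) and SD_Contig59195 from 40.3 to 1331 RPKM (33.0, 19.9 to 59.1), levels like those of the induced small heat shock contigs. Of the 227 contigs with a bracketed bacterial name, 14 (6.17%) were higher and 119 (52.4%) lower, with a median log2 ratio of −1.10.

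For 7 product names carried by 1 contig in each population, SD and SC lay past 2-fold in opposite directions, and the difference was not tested. Of the 69 names higher in SD, 4 were lower in SC, beside 5.53% of all 4106 names. Of the 54 lower in SD, 3 were higher in SC, beside 16.4% of all names. Neither count stood clearly above the share of all names. A shared name need not mark the same gene, and whether contigs paired this way are orthologs was not tested. The Hsp70-Hsp90 organizing protein homolog was 3.17-fold higher in SD (82.1 and 260.1 RPKM) and at 216 and 108 RPKM in SC. The paper paired an organizing protein with a similar SD rise to its SC ortholog by reciprocal best sequence match. It lists a smaller SC fall for that ortholog, without a mark of significance. The SC contig paired here by name is therefore probably not that ortholog, and an opposite response of this gene is not shown. A cuticular protein of the RR-1 family was 25.5-fold higher in SD on 3 control reads and at 21.5 and 9.06 RPKM in SC, the *Drosophila willistoni* match GK25194 was 7.56-fold higher in SD and at 14.1 and 4.96 RPKM in SC, and the bursicon subunit beta, part of a hormone of cuticle hardening, was 2.62-fold higher in SD and at 34.2 and 16.6 RPKM in SC. Names lower in SD and higher in SC were the nuclear receptor matches cre-nhr-35, at a ratio of 0.460 in SD and 2.04 in SC, and cre-nhr-14, at 0.396 and 3.13, and cg8245 at 0.488 and 2.33.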

How the results depend on the processing

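The counts of 589 members at least 2-fold higher and 444 at least 2-fold lower depended on the filter and the threshold. They were 193 and 219 with 5 RPKM required in both libraries, 1077 and 1194 at 1.5-fold, and 198 and 69 at 4-fold. With the whole counting interval past 2-fold they were 122 and 69, by Kal's Z-test on RPKM (Bonferroni-adjusted p of 0.10 or less, no fold limit, and with reads of 1 library as the sampling unit) 127 and 91, and with 1 contig per product name 329 and 263. The higher count alone also moved, to 321 with the interval past 1 and to 142 with at least 10 control reads, which removes members that were scarce in the control. The other alternatives left both counts within 1.5 times. Dividing by the median ratio of all contigs, 0.977 (log2 −0.03), moved the proteasome median from −0.014 to 0.019 and the cytosolic ribosomal protein median to −0.11. The cuticle median of 0.81 became 0.28 with 5 RPKM in both libraries or with at least 10 control reads. The hsp70 median of 1.99 became 0.92 with at least 10 control reads and turned to −0.05 with 5 RPKM in both libraries, within the wide interval of a list of 16. Of 210 list medians under alternatives 206 stayed within the interval of the main value, that one included, as did 281 of 284 ratios of single contigs, and no direction of a called ratio reversed. With 1 library per condition the interval of a list median cannot reflect replicates. For a short list it was wide enough to hold a turn of sign. Staying within it therefore does not show that a list median is stable. No paired analysis was possible because each condition had 1 library, and for the same reason none could be left out.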
